A study of Homo sapiens with 12 samples.

Results

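The FOS and JUN genes encode the subunits of activator protein 1 (AP-1), and their 7 members FOS, FOSB, FOSL1, FOSL2, JUN, JUNB and JUND were followed in 2 keratinocyte lines before and after exposure to hydrogen peroxide. The members were taken by gene symbol from a count table of 58735 genes, and all 7 were among the 16618 genes whose mean raw count reached 10. They were chosen as early transcription factors of oxidative stress. The rise of FOS in HaCaT, the largest among these 16618 genes, also entered the choice. The change in HaCaT is therefore described below without a test. Earlier results of these data were known when the members were chosen.

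Polyadenylated RNA was sequenced from HaCaT, an immortalized line of skin keratinocytes, and from TIGK, a telomerase-immortalized line of oral (gingival) keratinocytes. Both lines were kept in the same keratinocyte medium and grown to full confluency. Each was either left untreated (Hctrl and Tctrl) or exposed to 5 mM H2O2 for 3 h (Hhp and Thp), with 3 libraries in each of the 4 groups. Skin and oral epithelium are each represented by a single line, at a single dose and time, and the labels do not say whether the 3 libraries of a group came from separate cultures. The p-values therefore set the group differences against the spread between these libraries, which may be technical.

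AP-1 is a dimer of basic leucine zipper (bZIP) proteins. JUN proteins pair with each other or with FOS proteins, whereas FOS proteins need a JUN partner, and the dimers bind short palindromic DNA elements. FOS, FOSB, JUN and JUNB are classic immediate-early genes, transcribed within minutes of growth factor, ultraviolet or oxidative stimuli through MAP kinases, and their transcripts are short-lived. FOSL1 and FOSL2 lack the strong activation domain of FOS and FOSB. In epidermis the different dimers control proliferation, wound repair and the cornified envelope genes.

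Total counts ranged from 30426401 to 49034244 per library. The keratinocyte markers KRT5, KRT14, TP63, KRT6A, CDH1 and DSG3 were detected in all groups, and their summed level ran from 1177620 to 1680910 normalized counts (counts scaled to a library of 36310600 by TMM, the trimmed mean of M-values). The sums of the 5 fibroblast markers ran from 308.6 to 713, mostly COL1A1, and were higher in TIGK, while COL1A2 was at 0 in every library. Melanocyte, endothelial and immune marker sums did not exceed 93.8, 59.7 and 5.92. The part of these low marker levels in the results was not tested.

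The start sites of 6 members were listed by RefSeq on GRCh38.p14, and stretches upstream of them are shown because AP-1 genes are known to be controlled by response elements close to the start. FOSL1 was not listed. The windows from 500 bases before to 50 after the start were searched on both strands for TGANTCA (the AP-1 element), TGACNTCA (its longer form), TGACGT (the core of the cAMP response element, which overlaps matches of TGACNTCA that read TGACGTCA) and the CArG box, the element of serum response factor. Capitals mark a match, and positions count from the RefSeq start. FOS (chr14:75278504-75278773, plus strand) held a CArG box 314 bases and a TGACGT 64 bases upstream. FOSB (chr19:45467712-45467994, plus strand) had the same arrangement, with a CArG box 274 bases and a TGACGT 60 bases upstream.
FOS: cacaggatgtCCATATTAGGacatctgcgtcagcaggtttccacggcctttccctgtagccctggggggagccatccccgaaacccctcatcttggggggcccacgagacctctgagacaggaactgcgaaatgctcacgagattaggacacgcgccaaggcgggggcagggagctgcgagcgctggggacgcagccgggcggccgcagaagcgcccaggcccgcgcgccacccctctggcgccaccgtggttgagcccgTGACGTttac
FOSB: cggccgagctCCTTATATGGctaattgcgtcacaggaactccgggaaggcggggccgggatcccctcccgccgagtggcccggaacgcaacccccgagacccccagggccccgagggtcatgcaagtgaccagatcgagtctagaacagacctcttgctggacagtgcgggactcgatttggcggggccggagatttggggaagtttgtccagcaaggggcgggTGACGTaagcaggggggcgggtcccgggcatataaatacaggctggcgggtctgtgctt

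JUND (chr19:18281623-18281872, minus strand) held the longer element 200 bases upstream and a TGACGT, read on the opposite strand, 87 bases upstream. JUN (chr1:58784096-58784125, minus strand) held TGACATCA 67 bases upstream, and FOSL2 (chr2:28392780-28392809, plus strand) held TGACGT 66 bases upstream. The JUN and FOSL2 matches fall inside the deposited gene models, which begin further upstream than the RefSeq start. Outside the stretches shown, FOSB held TGACGTCA 325 bases upstream, JUN and FOSL2 held TGACGT on the opposite strand 322 and 418 bases upstream, and FOSL2 held TGACTCA from base 4 after the start.
JUND: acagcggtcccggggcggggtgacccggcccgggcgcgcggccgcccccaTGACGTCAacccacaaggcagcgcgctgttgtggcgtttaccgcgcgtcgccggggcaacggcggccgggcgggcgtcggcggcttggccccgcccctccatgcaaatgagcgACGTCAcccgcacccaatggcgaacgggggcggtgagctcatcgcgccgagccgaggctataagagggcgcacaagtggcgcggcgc
JUN: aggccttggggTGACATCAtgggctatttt
FOSL2: ggagtctggggtTGACGTgagtgaatccac
Of the 6 member windows, 5 held TGACGT, 3 held TGACNTCA, 2 held a CArG box and 1 held TGANTCA. Among all 35112 windows of 550 bases the shares were 11.1%, 11.7%, 2.56% and 13%. These letters were not found in the JUNB window. The matches describe the sequence and not binding, which was not measured.

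FOS and FOSB are the FOS proteins with a strong activation domain, and they had the largest log2 fold changes of the family in both lines. FOS (ENSG00000170345, chromosome 14 from 75278774 to 75282230, GRCh38) stood at 941, 741 and 729 normalized counts in the 3 untreated TIGK libraries and at 10262, 7921 and 10280.4 after H2O2. All treated TIGK libraries were far above all untreated ones. FOS rose by a log2 fold change of 3.56 (SE 0.155, adjusted p = 2.78e-12, quasi-likelihood F test of edgeR). This test is used here and below, adjusted over all genes tested by the method of Benjamini and Hochberg. In HaCaT, FOS stood at 245, 246 and 318 normalized counts untreated and at 26491, 18257 and 17187 after H2O2, a log2 fold change of 6.26 (SE 0.178) that ranked 1 of 16618 by size, which is how the gene was chosen. The group means were thus 11.8-fold apart in TIGK and 76.6-fold apart in HaCaT. HaCaT held less FOS RNA than TIGK untreated and more after treatment, with no overlap of libraries in either state. In these bulk samples a rise in every cell and a change in the share of expressing cells cannot be told apart, nor can fewer cells of a type and less RNA per cell.

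FOSB (ENSG00000125740, chromosome 19 from 45467995 to 45475179) stood at 201, 170.1 and 205 normalized counts in untreated TIGK and at 3017, 2814 and 3185 after H2O2. It rose by a log2 fold change of 3.97 (SE 0.134, adjusted p = 5.72e-14), the largest of the family in TIGK. Untreated HaCaT held 419.5, 498 and 434 normalized counts, and treated HaCaT held 13782, 10303 and 9261, a log2 fold change of 4.63 (SE 0.126). Unlike FOS, FOSB was higher in HaCaT than in TIGK in both states, and no libraries of any pair of groups overlapped. The first treated HaCaT library was the highest for both FOS and FOSB. All 7185 bases of FOSB lie within the span of ERCC1, a DNA repair gene on the opposite strand. Whether counting was stranded is not stated, and if strand was not used, reads in shared bases cannot be told apart. ERCC1 had 701 ± 55.1 and 721 ± 47.4 normalized counts (SD, n = 3) in untreated and treated TIGK and 2834 ± 146 and 2622 ± 373 in HaCaT, so its change with treatment did not pass in either line (log2 fold changes 0.04 and -0.11, adjusted p = 0.793 and 0.314), while it was, like FOSB, higher in HaCaT.

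**Figure D1:**
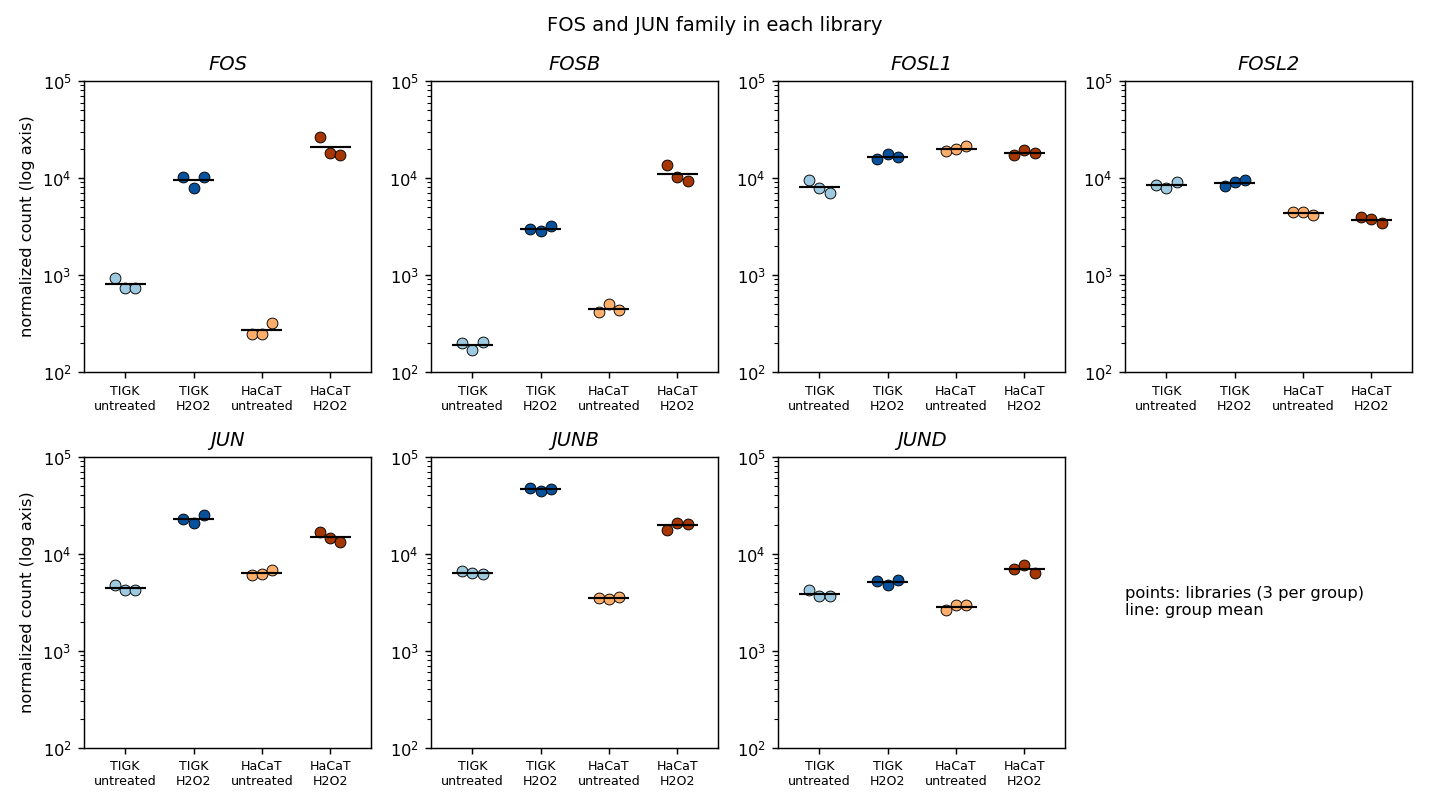
Normalized counts (log axis) of the 7 family members in each of the 12 libraries, with the group mean as a line. FOS, FOSB, JUN, JUNB and JUND of both lines stand apart by treatment without overlap, FOSL2 stands apart by line, and the FOSL1 libraries of untreated TIGK (6987 to 9500.1) lie below all others.

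FOSL1 and FOSL2 encode FRA1 and FRA2, the FOS proteins without the strong activation domain, and they followed another pattern. FOSL1 (ENSG00000175592, chromosome 11 from 65892049 to 65900573) stood at 9500.1, 7882 and 6987 normalized counts in untreated TIGK and at 15783, 17497 and 16502 after H2O2. The groups did not overlap, and FOSL1 rose by a log2 fold change of 1.03 (SE 0.0848, adjusted p = 2.95e-08). In HaCaT it was high from the start, at 18893, 19869.7 and 21182 normalized counts untreated and 17224, 19438 and 18198 after H2O2, and these libraries overlapped (log2 fold change -0.13, SE 0.0835). The highest treated TIGK library lay above the lowest of treated HaCaT, so the treated lines overlapped, whereas all untreated TIGK libraries lay below all of HaCaT.

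FOSL2 (ENSG00000075426, chromosome 2 from 28392448 to 28417312) differed by line and little by treatment. It stood at 8547, 7948 and 9202 normalized counts in untreated TIGK and at 8203, 9187 and 9443 after H2O2. These libraries overlapped, and the log2 fold change of 0.06 (SE 0.0683, adjusted p = 0.508) did not pass the test. In HaCaT the libraries held 4476, 4467 and 4135 normalized counts untreated and 3953, 3780.2 and 3424 after H2O2, so the treated ones lay below the untreated ones by a small margin (log2 fold change -0.23, SE 0.0697). FLJ31356, an antisense gene that overlaps FOSL2, had at most 13 counts, and AC104695.3, within it on the same strand, at most 8.

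JUN (ENSG00000177606, chromosome 1 from 58780788 to 58784327) encodes c-JUN, the dimer partner whose amino terminus is the target of the JNK kinases. It stood at 4784, 4277 and 4264 normalized counts in untreated TIGK and at 22960.5, 20948 and 25183 after H2O2, and rose by a log2 fold change of 2.37 (SE 0.0857, adjusted p = 1.66e-13). Untreated HaCaT held 6100.3, 6252 and 6786 normalized counts, and treated HaCaT held 16784, 14503 and 13182, a log2 fold change of 1.22 (SE 0.0827). Untreated, all HaCaT libraries lay above those of TIGK, and after H2O2 the order of the lines was the opposite.

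JUNB (ENSG00000171223, chromosome 19 from 12791496 to 12793315), which often opposes c-JUN at shared targets, rose in TIGK with the smallest adjusted p of the family. It stood at 6666, 6259 and 6198 normalized counts in untreated TIGK and at 47569.9, 44849.8 and 47000.3 after H2O2, and rose by a log2 fold change of 2.87 (SE 0.0655, adjusted p = 1.43e-16). The HaCaT libraries held 3478, 3446 and 3620.0 untreated and 17531, 20983 and 20168 after H2O2, a log2 fold change of 2.48 (SE 0.0650). TIGK was above HaCaT in both states without overlap. All 1820 bases of JUNB lie within the span of HOOK2, a gene of the opposite strand. If strand was not used, reads in shared bases cannot be told apart. HOOK2 had 1027 ± 44.5 and 1247 ± 60.7 normalized counts in untreated and treated TIGK (log2 fold change 0.28, adjusted p = 0.00520) and 1460 ± 47.0 and 1549 ± 111 in HaCaT (log2 fold change 0.09, adjusted p = 0.346; SD, n = 3).

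JUND (ENSG00000130522, chromosome 19 from 18279760 to 18281622), usually the most steadily expressed JUN gene, changed least among the JUN genes of TIGK. It stood at 4275, 3641 and 3658 normalized counts in untreated TIGK and at 5242, 4806 and 5402 after H2O2. The groups did not overlap, and JUND rose by a log2 fold change of 0.42 (SE 0.0764, adjusted p = 0.000328). In HaCaT it stood at 2603, 2933 and 2943 normalized counts untreated and at 6893, 7641 and 6402 after H2O2, a log2 fold change of 1.30 (SE 0.0775). JUND was lower in HaCaT than in TIGK untreated and higher after H2O2.

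The response of TIGK addressed how oral keratinocytes change the family under oxidative stress, and 6 of 7 members rose and 0 fell at an adjusted p under 0.01. Over all 16618 genes tested, 10.2% rose at this limit and 23.2% changed in either direction. By size of the log2 fold change among all genes tested, FOSB ranked 7, FOS 13, JUNB 21, JUN 32 and FOSL1 277, and JUND ranked 1995. The libraries of the same 6 members did not overlap between treated and untreated TIGK, which held for 25.7% of all genes in this direction and 25.4% in the other. The median log2 fold change was 2.37 over the 7 members and 0.01 over all genes tested. Earlier results of these data were known when the members were chosen, so the calls in TIGK may not be independent of that choice.

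In HaCaT, 5 members had a log2 fold change above 0 and 2 below 0, with a median of 1.30 against 0.04 over all genes tested. FOS, FOSB, JUN, JUNB and JUND stood higher after H2O2 without overlap, FOSL2 stood lower without overlap, and FOSL1 overlapped. Of all genes, 29.7% were higher and 24.1% lower without overlap, and 34.1% passed at an adjusted p under 0.01 (18.9% rose and 15.2% fell). These shares are given for scale, since the members were picked on this contrast. FOSB ranked 7 of 16618 by size here too, JUNB 94, JUND 289 and JUN 325.

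**Figure D2:**
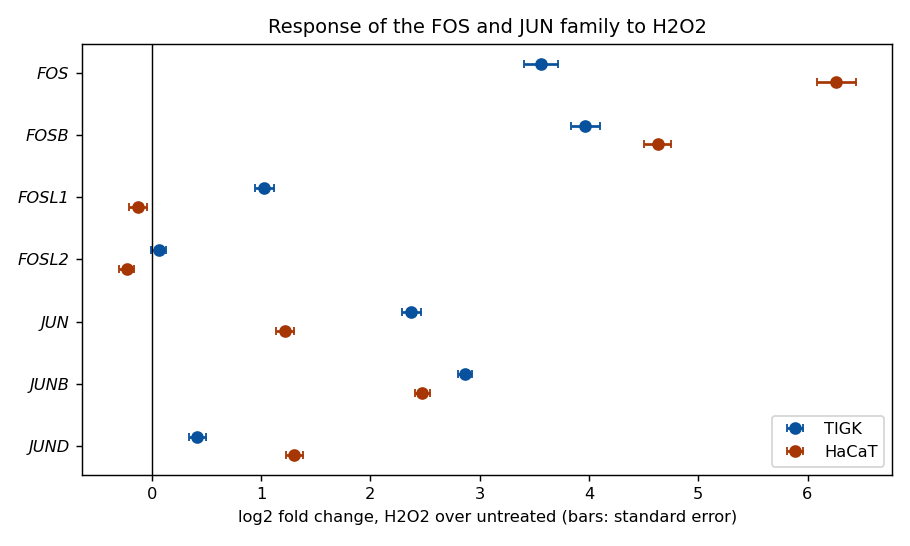
Log2 fold change of each member after H2O2 over untreated, in TIGK and in HaCaT, with standard errors as bars. FOS (3.56 and 6.26) and FOSB (3.97 and 4.63) lie farthest right in both lines, JUN and FOSL1 lie farther right in TIGK, and JUND farther right in HaCaT.

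The untreated lines were compared to show how the family stood before stress. FOSB, FOSL1 and JUN were higher in HaCaT, and FOSL2, JUNB and JUND higher in TIGK, so 6 of 6 members tested passed at an adjusted p under 0.01, where 59.9% of all genes did (29.1% higher and 30.8% lower in HaCaT). FOSL1 was 2.46-fold higher in HaCaT by group means (log2 difference 1.30, SE 0.0852, adjusted p = 8.44e-11) and FOSB 2.35-fold (1.22, SE 0.144, adjusted p = 3.46e-07), the latter beside the higher ERCC1 level on its other strand. JUN was 1.44-fold higher (0.52, SE 0.0827, adjusted p = 1.55e-05). On the other side, HaCaT held a lower level of FOSL2 (log2 difference -0.97, SE 0.0694, adjusted p = 2.82e-10), JUNB (-0.86, SE 0.0627, adjusted p = 4.05e-10) and JUND (-0.45, SE 0.0772, adjusted p = 3.89e-05). FOS was lower in HaCaT by a log2 difference of -1.58 (SE 0.171) and is given without a test, because its low untreated HaCaT level is part of the rise it was chosen for. The libraries of the untreated lines overlapped for 0 of 7 members, and of all genes 36.2% were higher and 37.1% lower in HaCaT without overlap. The untreated HaCaT libraries are also in the contrast that entered the choice of the members, so these adjusted p-values are not independent of it.

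After H2O2, 5 of 6 members tested differed between the lines, where 60% of all genes did (30.2% higher and 29.8% lower in HaCaT). FOSB was 3.70-fold higher in HaCaT by group means (log2 difference 1.89, SE 0.108, adjusted p = 1.05e-11) and JUND 1.36-fold (0.44, SE 0.0759, adjusted p = 4.29e-05). JUNB (-1.25, SE 0.0618, adjusted p = 1.26e-12), FOSL2 (-1.27, SE 0.0700, adjusted p = 6.64e-12) and JUN (-0.64, SE 0.0814, adjusted p = 1.10e-06) were lower in HaCaT. FOSL1, which separated the untreated lines, did not pass here (log2 difference 0.14, SE 0.0836, adjusted p = 0.145) and its libraries overlapped, as for FOSL1 alone of the 7 members. Of all genes, 35.8% were higher and 35.6% lower in treated HaCaT without overlap. FOS was higher in HaCaT by 1.12 (SE 0.136), without a test. These contrasts share libraries with one another. The HaCaT libraries, untreated and treated, are also in the contrast that entered the choice of the members. The adjusted p-values here are therefore not independent of that choice.

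**Figure D3:**
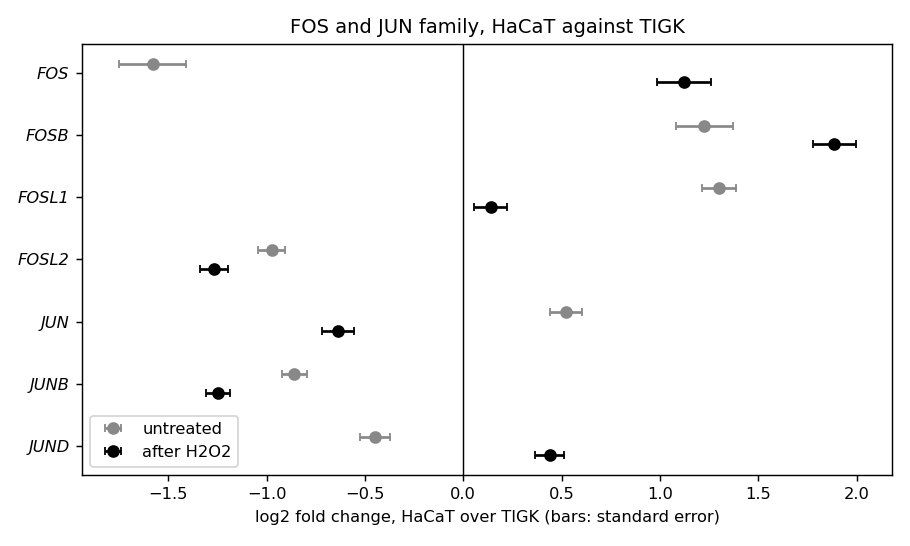
Log2 difference of HaCaT over TIGK for each member, untreated and after H2O2, with standard errors as bars. FOSL2 and JUNB lie left of 0 and FOSB and FOSL1 right of 0 in both states, while FOS (-1.58 and 1.12), JUN (0.52 and -0.64) and JUND (-0.45 and 0.44) lie on opposite sides.

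The difference of the responses, TIGK minus HaCaT, passed for 4 of 6 members tested, 3 with a larger log2 fold change in TIGK and 1 with a larger one in HaCaT. Over all genes 5.3% passed, 2.32% in the first direction and 2.98% in the second. FOSL1 (1.16, SE 0.119, adjusted p = 3.32e-06) and JUN (1.16, SE 0.116, adjusted p = 2.38e-06) had the larger log2 fold change in TIGK, and JUND (-0.89, SE 0.108, adjusted p = 2.58e-05) in HaCaT. JUNB had a smaller difference of 0.39 (SE 0.0872, adjusted p = 0.00661), and this call was lost when any single untreated HaCaT library was left out (adjusted p = 0.0153 to 0.0210), and likewise without untreated TIGK replicate 3 (0.0130) or treated TIGK replicate 1 (0.0210). FOSB (-0.66, SE 0.180, adjusted p = 0.0218) and FOSL2 (0.29, SE 0.0976, adjusted p = 0.0578) did not pass, but FOSB passed without treated HaCaT replicate 3 (adjusted p = 0.00186) and FOSL2 without treated HaCaT replicate 1 (0.00962). For FOS the difference was -2.70 (SE 0.218), and -2.42 without treated HaCaT replicate 1, with no test in either case. The HaCaT response in each difference entered the choice of the members, so these adjusted p-values are not independent of that choice.

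Levels of different genes were compared per length, as RPKM (counts scaled by the deposited gene length and by the TMM library size). The deposited length is a single value per gene (3238 bases for FOS, 1820 for JUNB), and the lengths of the transcripts present were not measured. Shares and orders across genes depend on these lengths. The 7 members summed to 347 ± 30.2 RPKM in untreated TIGK and 1331 ± 42.1 in treated TIGK, and to 458 ± 22.7 in untreated HaCaT and 1026 ± 46.3 in treated HaCaT (SD, n = 3). The summed level was thus 3.83 times as high after H2O2 in TIGK and 2.24 times in HaCaT, and no libraries of the 4 groups overlapped. The composition of the sum differed as well. FOSL1 alone made 63.7% of the family RPKM in untreated HaCaT and 34.0% in untreated TIGK, against 26.0% and 18.2% after H2O2. JUNB made 52.9% in treated TIGK and 28.9% in treated HaCaT, against 27.8% and 11.6% untreated. FOS went from 0.50% to 17.0% in HaCaT and from 1.96% to 6.05% in TIGK.

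The 4 FOS genes together made 45.8% ± 1.45 of the family RPKM in untreated TIGK, 28.0% ± 0.904 in treated TIGK, 68.4% ± 0.197 in untreated HaCaT and 49.8% ± 2.71 in treated HaCaT (SD, n = 3). After H2O2 the JUN genes thus held the larger part of the transcripts per length in TIGK, at 959 ± 40.1 RPKM against 372 ± 8.13 for the FOS genes, while in HaCaT the sums were 514 ± 25.1 and 512 ± 45.1. In untreated HaCaT, FOSL1 led at 292 ± 16.8 RPKM, JUNB (53.2 ± 1.40) and JUN (49.6 ± 2.80) followed with overlapping libraries, and FOS (2.29 ± 0.356) and FOSB (2.24 ± 0.208) were lowest and overlapped. In treated HaCaT, JUNB (296 ± 27.3) and FOSL1 (267 ± 16.2) overlapped at the top, followed by FOS at 176 ± 43.3. In treated TIGK, JUNB stood alone at 703 ± 21.7 RPKM, ahead of FOSL1 at 242 ± 12.6 and JUN at 179 ± 16.5, and FOS (80.7 ± 11.5) overlapped with JUND (76.1 ± 4.56). FOSB was the lowest member in both TIGK groups (0.953 ± 0.0951 and 14.9 ± 0.920), so that it had the largest log2 fold change in TIGK at the smallest level.

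**Figure D4:**
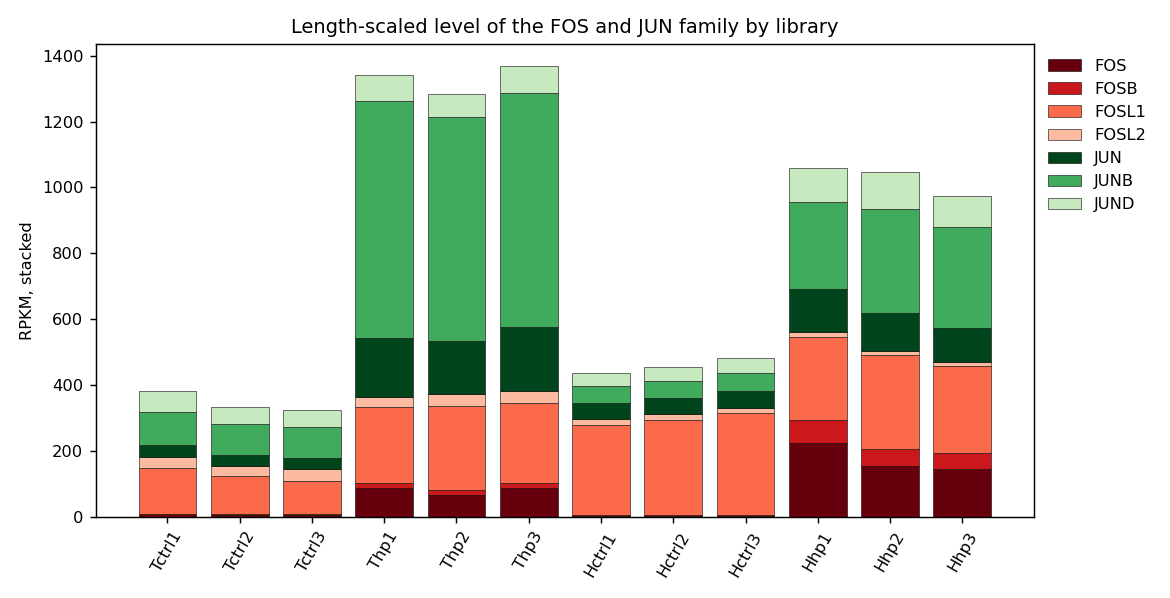
RPKM of the 7 members stacked by library, FOS genes in reds and JUN genes in greens, for untreated TIGK (Tctrl), treated TIGK (Thp), untreated HaCaT (Hctrl) and treated HaCaT (Hhp). The treated TIGK bars are the tallest and JUNB makes the largest part of them (52.9% on average), whereas FOSL1 fills most of the untreated HaCaT bars (63.7%).

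Genes around the family were counted in 5 lists, which were chosen with earlier results of these data known. Their counts and adjusted p-values may not be independent of that choice. Over all genes tested, 10.2% rose and 12.9% fell in TIGK, and 18.9% rose and 15.2% fell in HaCaT. Of 9 partner bZIP factors tested, 3 rose and 0 fell in TIGK and 5 rose and 1 fell in HaCaT, with median log2 fold changes of 0.21 and 0.43. ATF3, a stress-induced bZIP protein that pairs with JUN, rose by 1.55 in TIGK (SE 0.0864, adjusted p = 1.03e-10) and by 3.54 in HaCaT (SE 0.0965, adjusted p = 3.55e-15), and this difference of -1.98 passed (SE 0.126, adjusted p = 7.72e-09). MAFK, a small MAF protein, rose by 0.40 in TIGK (adjusted p = 0.000575) and by 0.43 in HaCaT (adjusted p = 0.000179). BATF2 had the lowest called change in HaCaT (-1.10, SE 0.327, adjusted p = 0.00999) and a log2 fold change of -0.59 in TIGK (adjusted p = 0.136), a difference that did not pass (adjusted p = 0.521). BATF did not reach the mean count of 10.

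Upstream of AP-1, of 19 genes of the MAP kinase cascade 3 rose and 3 fell in TIGK, and 4 rose and 2 fell in HaCaT, with medians of -0.03 and -0.01. MAP3K5, the redox-sensitive kinase ASK1, had the largest called rise in both lines (log2 fold change 0.57, adjusted p = 0.000150 in TIGK; 0.70, adjusted p = 1.91e-05 in HaCaT). MAPK7, known as ERK5, fell by 0.61 in TIGK (adjusted p = 0.000825) and had a log2 fold change of -0.30 in HaCaT (adjusted p = 0.0503), a difference that did not pass (adjusted p = 0.292). MAP2K4, a kinase of JNK, fell by 0.25 in both lines (adjusted p = 0.00247 in TIGK and 0.00174 in HaCaT). These are transcript levels, and kinase activity was not measured. Among 10 factors that act on the FOS and JUN promoters, 1 rose and 3 fell in each line, with medians of -0.13 and -0.07. SRF, serum response factor, rose by 0.34 in TIGK (adjusted p = 0.000271) and had a log2 fold change of 0.03 in HaCaT (adjusted p = 0.768), a difference that did not pass (adjusted p = 0.0239). ELK3, a ternary complex factor that pairs with SRF, fell by 0.47 in TIGK (adjusted p = 1.15e-05) and had a log2 fold change of -0.13 in HaCaT (adjusted p = 0.0974), a difference that did not pass (adjusted p = 0.0156). CREB1, which binds the cAMP response element, fell in both lines, by 0.40 in TIGK (adjusted p = 0.000117) and by 0.54 in HaCaT (adjusted p = 3.84e-06). MEF2D rose by 0.32 in HaCaT (adjusted p = 0.000776) and had a log2 fold change of 0.22 in TIGK (adjusted p = 0.0161), a difference that did not pass (adjusted p = 0.589).

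Of 11 genes of FOS and JUN turnover or cofactors, 4 rose and 1 fell in TIGK, and 5 rose and 4 fell in HaCaT, with medians of 0.19 and -0.14. ZFP36, an RNA-binding protein that promotes decay of AU-rich transcripts, rose by 1.50 in TIGK (SE 0.0785, adjusted p = 4.40e-11) and by 2.35 in HaCaT (SE 0.0822, adjusted p = 1.45e-13). ITCH, a ubiquitin ligase of JUN proteins, fell by 0.55 in TIGK (adjusted p = 3.96e-07) and by 0.93 in HaCaT (adjusted p = 3.56e-10). The response differed between the lines for 4 of these 11 genes, ZFP36 (-0.85), ZFP36L1 (0.85), ZFP36L2 (0.63) and ITCH (0.38), where 5.3% of all genes did. Of these, ZFP36L1 and ZFP36L2 are named after their values were seen. In the lists above it differed for 1 of 9 partner bZIP factors, 0 of 19 MAP kinase genes and 0 of 10 promoter factors. Of the 24 target genes below, 4 had a higher log2 fold change in TIGK and 2 in HaCaT by this test.

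AP-1 target genes of keratinocytes went both ways. Of 24 tested, 4 rose and 7 fell in TIGK, where 10.2% of all genes rose and 12.9% fell, and 3 rose and 10 fell in HaCaT, where 18.9% rose and 15.2% fell, with median log2 fold changes of -0.08 and -0.09. HBEGF, an epidermal growth factor receptor ligand, had the largest rise in both lines (1.60, SE 0.0960, adjusted p = 3.04e-10 in TIGK; 2.15, SE 0.0910, adjusted p = 1.94e-12 in HaCaT). FLG, which encodes the barrier protein filaggrin, had the lowest log2 fold change called, -1.83 in TIGK (SE 0.272, adjusted p = 3.89e-05) and -2.01 in HaCaT (SE 0.148, adjusted p = 6.36e-09), from means of 198 ± 52.2 and 19697 ± 2680 normalized counts untreated (SD, n = 3). MMP1, interstitial collagenase and a textbook AP-1 target, rose by 0.36 in TIGK (adjusted p = 0.00627) and had a log2 fold change of 0.01 in HaCaT (adjusted p = 0.970), a difference that did not pass (0.36, adjusted p = 0.0969). PLAU, the urokinase gene, was named after its values were seen, since it rose by 0.64 in TIGK (adjusted p = 6.42e-07) and fell by 0.78 in HaCaT (adjusted p = 3.23e-08), a difference of 1.42 (SE 0.0930, adjusted p = 1.11e-08). Among the targets whose response differed between the lines were PLAU, IVL and EZR with a higher log2 fold change in TIGK and CXCL8 and HBEGF with a higher one in HaCaT. Of these, IVL, EZR and CXCL8 too are named after their values were seen.

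**Figure D5:**
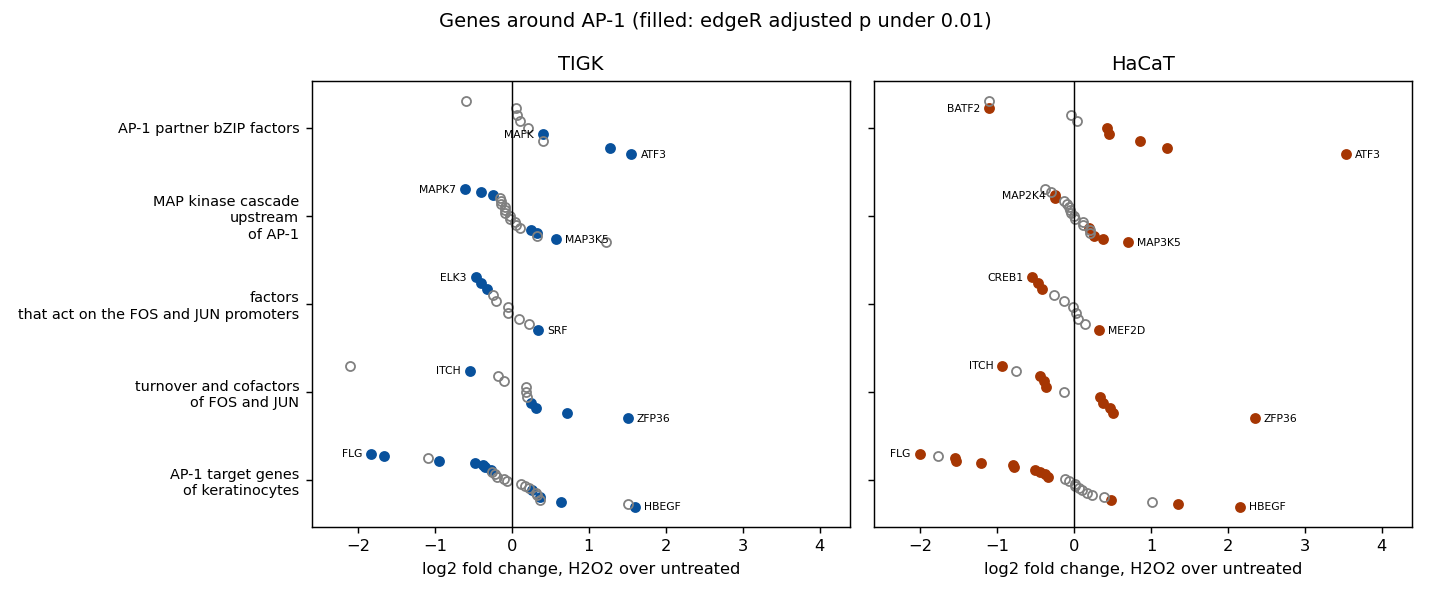
Log2 fold change after H2O2 over untreated of the genes tested in 5 lists around AP-1, in TIGK and in HaCaT, filled where the adjusted p was under 0.01. ATF3 (1.55 and 3.54), ZFP36 (1.50 and 2.35) and HBEGF (1.60 and 2.15) lie farthest right in their lists, and FLG (-1.83 and -2.01) is the lowest called gene.

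Likeness to each member was measured as Pearson's r of log2 CPM over the 12 libraries among 12607 genes with at least 100 normalized counts in their highest group. The 12 points form 4 groups of 3, so r describes mostly the pattern of the group means. FOS was most like WEE1, a kinase that restrains mitotic entry (r = 0.991), EGR1, an immediate-early zinc finger factor (0.987), and PPP1R15A, a subunit of a stress-induced phosphatase (0.976). In untreated cells EGR1 stood at 967 ± 169 normalized counts in HaCaT and 3722 ± 384 in TIGK, and after H2O2 at 61417 ± 6246 and 57288 ± 5224, so its treated means lay closer together than those of FOS. FOSB was most like TSC22D3, RPRD1A and SOCS3 (0.984 to 0.985), and FOSL1 most like CITED4, BCL10 and BPGM (0.960 to 0.977). BCL10, a signalling adaptor, had its lowest group mean in untreated TIGK and its highest in untreated HaCaT, as FOSL1 did. It stood at 1033 ± 102 in untreated TIGK, 2116 ± 37.9 in treated TIGK, 2541 ± 108 in untreated HaCaT and 1988 ± 76.1 in treated HaCaT (SD, n = 3). After H2O2 the mean of BCL10 was higher in TIGK, whereas that of FOSL1 was higher in HaCaT with overlapping libraries.

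FOSL2 was most like NOTCH3, PARP14 and VGLL3 (0.991 to 0.993), which like FOSL2 were higher in TIGK. VGLL3, a transcription cofactor, stood at 5230 ± 349 and 5808 ± 115 normalized counts in untreated and treated TIGK and at 491 ± 28.8 and 266 ± 45.0 in HaCaT. JUN was most like CSRNP1 and RNF39 (0.973 to 0.975), JUNB most like COG4, KLF11 and TRA2B (0.988 to 0.991), and JUND most like SAMD1, BBC3 and FOS (0.965 to 0.987). Among the members themselves, FOS and JUND had the highest r (0.965) and FOSL1 and FOSL2 the lowest (-0.637).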

How the data were processed

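The authors deposited a table of raw counts per gene for 12 libraries, made with HISAT2 and featureCounts on GRCh38, per the labels, whose texts name more than 1 version of HISAT2 (2.0.5 and 2.0.0). They also deposited DESeq2 log2 fold changes and adjusted p-values of their 4 comparisons, which were not used. The annotation release and the use of strand in counting are not given in the sources used here. Groups were taken from the sample titles. In the treatment labels the last digit of the compound's formula rises with the replicate number, whereas the treatment protocol and the methods name H2O2 for all.

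The model was fitted with edgeR 4.0.16 (R 4.3.3). A mean raw count of 10 or more over the libraries was required, TMM factors ran from 0.962 to 1.036, and 1 quasi-likelihood model took in all libraries, with 1 coefficient for each group (glmQLFit, glmQLFTest, two-sided). Benjamini-Hochberg adjustment covered all genes tested, at a limit of 0.01. Standard errors are the log2 fold change over the root of F. Log2 CPM used a prior count of 2. The fit was also run on simulated counts with known changes in treated TIGK alone. In that simulation the lines did not differ otherwise, unlike in these data, and its outcome is not given here. The table had 0 lines without a gene, 0 unused columns of sample values and 0 identical libraries, and the 12 replicate pairs differed by chi-square values of 4.45 to 28.2 per degree of freedom. Raw counts of the members ran from 164 to 59356, and the precision is lowest for the lowest counts, those of FOSB in untreated TIGK.

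The members and the gene lists were chosen with earlier results of these data known. The genes named are the 7 members, the 3 genes most correlated with each, the called genes of each list with the largest and smallest change, and ATF3, SRF and MMP1. A few genes that these rules or lists name are not reported here. The design had planned a test of FOS between the untreated lines, and it was dropped after its value had been seen. The promoter motifs, the window and the stretches printed (between the matches and up to the deposited gene start, or 30 bases) were chosen during the analysis, the last after the matches were seen. All 35116 windows of the RefSeq table were identical to the genome used.

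Alternatives were DESeq2 1.42.0, fits on the compared groups alone, size factors, library totals, 2 other filters, a limit of 0.05, a replicate block, removal of mitochondrial genes and removal of each library, 21 in all. Plots used matplotlib 3.10.9 under Python 3.11.15.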

Additional observations from a re-analysis of the deposited data

Results flagged for a closer look

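For 4 members the response to H2O2 differed between the lines by the test of the difference itself, given as TIGK minus HaCaT on the log2 scale. The difference was 1.16 for FOSL1, whose 3 treated TIGK libraries all lay above the untreated ones while the HaCaT libraries overlapped. It was also 1.16 for JUN, 0.39 for JUNB and -0.89 for JUND, each of which was higher after H2O2 in all treated libraries of both lines. The JUNB difference was lost when any 1 of 5 libraries was left out. The adjusted p-values (edgeR, Benjamini-Hochberg) were 3.32e-06, 2.38e-06, 0.00661 and 2.58e-05 in this order. All 4 differences include the HaCaT response, which entered the choice of the members, so these adjusted p-values are not independent of that choice.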

How the results depend on the processing

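With 21 alternatives for each comparison (20 for the difference of the responses, where the groups cannot be fitted alone), no member reversed its direction past the limit, and the calls of members in the TIGK response and in both comparisons of the lines were the same under each of them. In the difference of the responses, the number of members called ran from 3 to 6. FOSB passed with DESeq2 (adjusted p = 0.00518), with no filter on low counts (6.83e-06) and at a limit of 0.05, and FOSL2 passed with no filter (0.00257). Over all its alternatives the adjusted p ran from 6.83e-06 to 0.0839 for FOSB, from 0.00257 to 0.127 for FOSL2 and from 3.26e-06 to 0.0210 for JUNB. The cause was not tested. Leaving out single libraries gave 3 to 5 members called in the difference. Counts of all genes called in the difference were 881, against 1403 with DESeq2, 2019 at a limit of 0.05, 558 and 577 without untreated HaCaT replicates 1 and 2, and 536 and 571 without treated TIGK replicates 2 and 3. The TIGK response had 3850 calls, and 5998 at a limit of 0.05. With library totals in place of TMM, JUNB stood at 51.5 RPKM in untreated HaCaT and 726 in treated TIGK. The most similar genes were the same with a prior count of 0.5.

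A correlation over all genes tested found no pairing of the samples by replicate number, but it could miss an effect limited to a few genes. Deviations of same-numbered libraries correlated from -0.0319 to 0.0257 over 12 pairs, and other pairs from -0.0225 to 0.0381 over 24. In 3 of 12 checks a library was best correlated with its own number. With the replicate block the calls over all genes went from 881 to 606 in the difference and from 3850 to 3239 in the TIGK response, and the members called in the difference from 4 to 3, since JUNB had an adjusted p of 0.0191. The other calls of members were the same under the block.

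The limits are a single line per tissue, 1 dose and 1 time, overlapping genes on the opposite strand of FOSB and JUNB, and 3 libraries per group of unstated origin.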
